A study of Mus musculus with 3 samples.

Results

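Mural cells are the contractile cells wrapped around blood vessels, that is the smooth muscle cells of arteries and arterioles and the pericytes of capillaries. The genes described here are 33 genes of mural cells and of the contractile apparatus, chosen by symbol as known genes of these cells. The choice applied no threshold to measured values, but it was made with earlier results of these data known. All 33 were found in the table of counts, among 46983 gene rows. They were divided by what each gene is known for into 14 smooth muscle contractile genes and 9 shared contractile genes that fibroblasts also make. A further 8 are genes of pericytes and other mural cells, called pericyte-restricted here as a class name. Their restriction to these cells was not tested. The last 2 are surface genes that mural cells share with fibroblasts or endothelium.

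The study sequenced RNA in bulk from cells of the leptomeninges, the thin inner membranes of the brain, of vehicle-treated mice. The tissue was microdissected, dissociated and sorted by flow cytometry, and the sorted material is labelled the pia enriched fraction. There were 3 libraries of 1 group (libraries 1, 2 and 3, numbered as in the labels), each amplified from 2 ng of RNA. The genotype, strain, sex and age of the mice, the agent whose vehicle they received, the sort markers and any pooling of animals were not given in the sources used here. Whether the libraries came from separate mice was not stated either, so p-values measure only the spread between these samples, which may be technical.

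In smooth muscle, calcium acts through calmodulin on myosin light chain kinase (Mylk), which phosphorylates the regulatory light chain of myosin (Myl9) and lets the smooth muscle myosin heavy chain (Myh11) pull on filaments of alpha-actin (Acta2). Calponins, transgelins and tropomyosins bind these filaments, and non-muscle cells use paralogs of most of these proteins in their cytoskeleton. Transcription of the smooth muscle forms is driven by serum response factor and its coactivator myocardin (Myocd), which act at a DNA element called the CArG box, a run of A and T between a pair of C and a pair of G.

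Libraries 1, 2 and 3 held 21002860, 28704952 and 25338616 counts in genes. The members together took 0.920%, 0.737% and 1.21% of them. Levels are given as FPKM, here the gene counts per 1000000 of the scaled library size and per kilobase of the gene's exons. A count of 0 allows up to 3 counts, which are 0.152, 0.101 and 0.116 counts per 1000000 (CPM). These floors cover counting error only, since the reads were amplified by PCR and carry no molecular identifiers. The labelled tissue was matched by its fibroblast markers: 8 of 8 were detected, with a median of 502 FPKM and a summed level of 24543, 29667 and 26019 CPM in libraries 1, 2 and 3. Endothelial markers were present at a low level, with a median of 1.93 FPKM over 10 genes and a highest mean of 6.88 FPKM. In bulk RNA, fewer cells of a type and less RNA per cell cannot be told apart.

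Sequences are shown first for the 3 muscle actins of the set, because reads of such paralogs could be confused in counting and their levels lie far apart. Each line gives the first bases of the coding part, which lie in exon 2, 5′ to 3′, from the transcripts of GENCODE M21 on GRCm38. Capitals mark bases that differ from Acta2 in an alignment of the whole coding parts.
Acta2, chr19:34252494-34252553, minus strand: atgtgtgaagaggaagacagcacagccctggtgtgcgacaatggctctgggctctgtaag
Actg2, chr6:83527382-83527441, minus strand: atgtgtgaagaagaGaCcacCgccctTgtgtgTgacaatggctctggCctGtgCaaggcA
Actc1, chr2:114051972-114052031, minus strand: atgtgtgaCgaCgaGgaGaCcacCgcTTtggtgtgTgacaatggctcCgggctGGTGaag
Of the 60 bases shown, 9 differ in Actg2 and 14 in Actc1. Actg2 also lacks 3 bases of Acta2 near the start of this stretch. That gap is neither drawn nor counted in the 9, so the later bases of the Actg2 line are shifted against Acta2. Over the coding part, Actg2 was identical to Acta2 at 84.2% of aligned positions with 176 substitutions and 3 gap bases, and Actc1 at 82.5% with 198 substitutions. Of 2146 distinct stretches of 50 bases in the transcripts of Acta2, 7 (0.326%) also occurred in another gene, and 0 did for Actg2 and Actc1.

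The promoters, from RefSeq on GRCm38.p6, run from 250 bases before to 50 bases after each annotated start and were found for 27 of the 33 members. Those missing, and so not searched, were Tagln, Myh11, Actg2 and Myocd of the smooth muscle class and the pericyte-restricted Higd1b and Ndufa4l2. A CArG box, searched by its letters on both strands, occurred in 5 of these 27 genes, against 488 of 27025 genes in the whole promoter table (1.81%). These 5 were 2 of 10 smooth muscle contractile genes (Actc1 and Ldb3) and 3 of 9 shared contractile genes (Myl9, Myl6 and Cnn2). None of 6 pericyte-restricted and none of 2 surface genes held one. The element CATTCC, the letters bound by TEAD factors, occurred in 8 of 27 members against 16.6% of all genes, again on both strands. A match describes only these letters in this window. The CArG search required an unbroken run of A and T, so a box with another base in that run was not found. In this strict form, the window of Acta2 held no CArG box. The boxes of Myl9, Cnn2 and Actc1 are printed with their surroundings, with the box in capitals.
Myl9, chr2:156775278-156775337, plus strand: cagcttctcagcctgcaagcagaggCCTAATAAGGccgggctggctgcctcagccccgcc
Cnn2, chr10:79988519-79988578, plus strand: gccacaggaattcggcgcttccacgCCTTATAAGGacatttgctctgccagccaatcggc
Actc1, chr2:114052888-114052947, minus strand: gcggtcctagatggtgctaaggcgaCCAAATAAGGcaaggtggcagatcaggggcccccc
The box lay 161 bases before the start in Myl9, 56 in Cnn2 and 47 in Actc1. These 3 genes lie far apart in level: Myl9 was the highest member by FPKM, Cnn2 the sixth, and Actc1 the lowest.

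The contractile genes of smooth muscle were present over a wide range, from Acta2 among the most abundant members to Actc1 at the detection floor. In 13 of the 13 that could be tested, the level was highest in library 3. Over all 14409 genes tested, 27.6% were highest in that library. The test across libraries called none of them, as described further on.

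Acta2 (chr19:34241090-34255590, minus strand), the alpha-actin of vascular smooth muscle, had 627, 526 and 1067 FPKM in libraries 1, 2 and 3 (739.7 ± 288, SD, n = 3). Tagln (chr9:45929619-45936058, minus strand), the actin-binding transgelin of smooth muscle, had 347, 193 and 448 FPKM (329 ± 128). Myh11 (chr16:14194535-14291372, minus strand), the smooth muscle myosin heavy chain, had 43.3, 50.7 and 95.1 FPKM (63.0 ± 28.0). Library 3 stood above the others for all 3 genes, by a 2.03-fold difference between the highest and lowest library for Acta2, 2.32-fold for Tagln and 2.20-fold for Myh11. Libraries 1 and 2 changed places: library 2 was lowest for Acta2 and Tagln, and library 1 for Myh11. Acta2 and Tagln made up 70.6%, 63.6% and 67.4% of the summed CPM of the smooth muscle class. Without them that sum was 861, 881 and 1566 CPM, so library 3 was also the highest on the other 12 genes.

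Smtn, smoothelin, an actin-binding protein of contractile smooth muscle, had 61.1, 54.7 and 78.8 FPKM (64.9 ± 12.5). Sncg, gamma-synuclein, had 67.1, 28.2 and 74.6 FPKM (56.6 ± 24.9). Pln, phospholamban, the inhibitor of the calcium pump of the sarcoplasmic reticulum, had 11.7, 26.0 and 56.6 FPKM (31.4 ± 22.9). These 3 genes differed in shape: libraries 1 and 3 were close for Sncg with library 2 low, whereas Pln was lowest in library 1 and spread over a 4.85-fold range. Without library 3 the mean of Pln was 18.6 FPKM. Over the median length of the protein-coding transcripts, in place of all annotated exons, it was 69.7 FPKM.

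Lmod1, leiomodin, which nucleates actin filaments, had 11.3, 8.05 and 17.0 FPKM (12.1 ± 4.53). Cnn1, the calponin of differentiated smooth muscle, had 10.5, 6.25 and 13.5 FPKM (10.1 ± 3.64). Des, the intermediate filament protein desmin, had 8.59, 6.88 and 14.3 FPKM (9.91 ± 3.86). In each of these 3 genes library 2 was lowest and library 3 highest, and the range was 2.11-fold, 2.16-fold and 2.07-fold. Over coding transcript length the mean of Cnn1 was 15.3 FPKM. The Z-disc and actin-binding proteins Synpo2 and Ldb3 had means of 4.26 ± 1.17 and 3.18 ± 0.707 FPKM, or 7.34 and 8.44 over coding transcript length. Actg2, the gamma-actin of enteric smooth muscle, had 2.52 ± 1.12 FPKM, from 39, 135 and 137 counts. Myocd, the coactivator that drives the programme, had 1.98 ± 0.837 FPKM from 143, 386 and 466 counts. All 4 were lowest in library 1 and highest in library 3, although Actg2 differed little between libraries 2 and 3. Actc1, the cardiac alpha-actin, had 0, 2 and 1 counts, which is at or under the floor in every library, and was not tested.

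**Figure D1:**
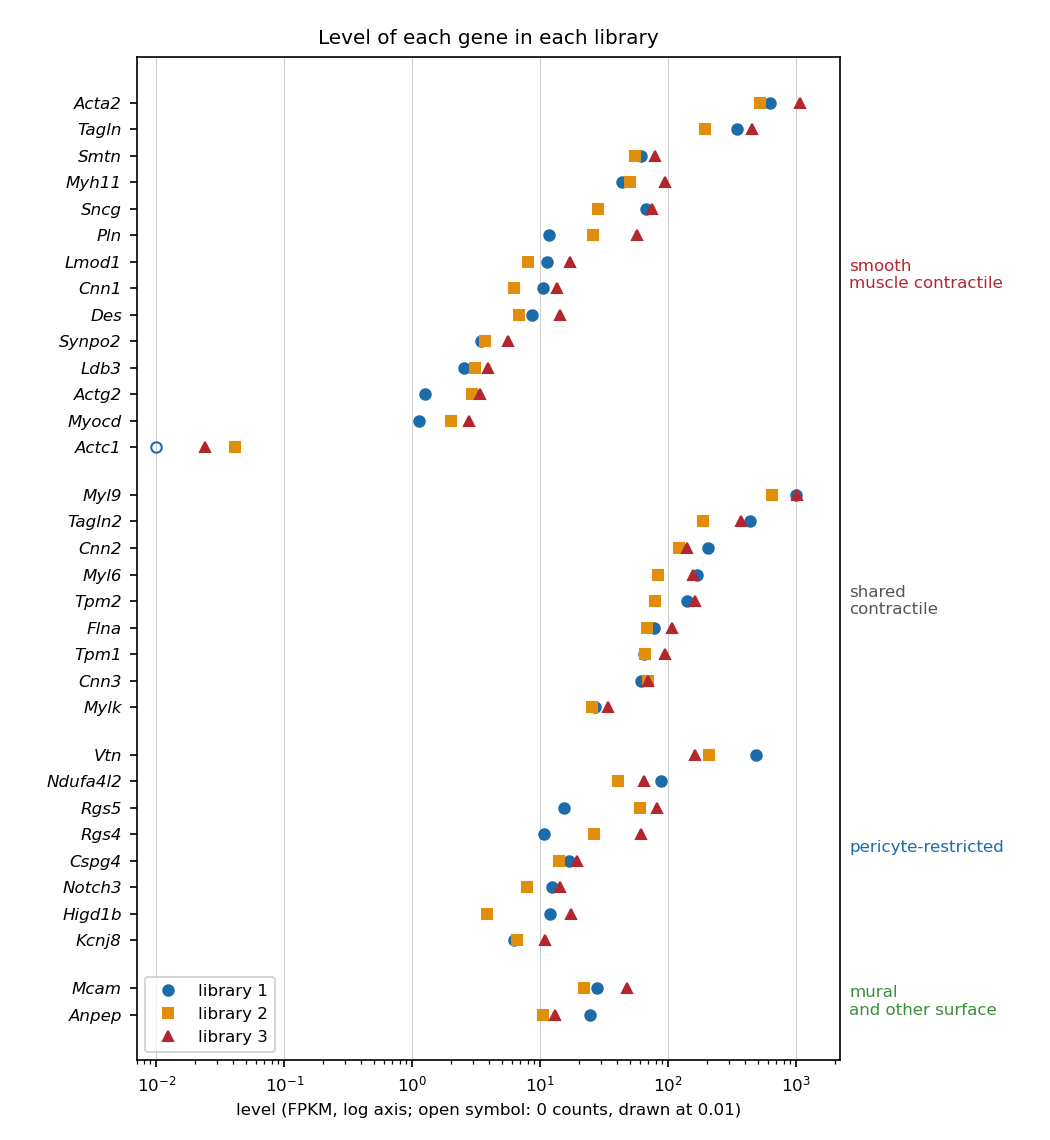
Level of each of the 33 genes in each library, in FPKM on a log axis, grouped by class (circles library 1, squares library 2, triangles library 3, an open symbol for 0 counts drawn at 0.01). The class of shared contractile genes lies to the right, between means of 28.8 and 884 FPKM, and the smooth muscle class spans the range from Actc1 at the floor to Acta2 at 739.7.

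The shared contractile genes were the most abundant class. All 9 were tested, with means from 28.8 FPKM for Mylk to 884 FPKM for Myl9. Their agreement on library 3 was looser, since 6 were highest in library 3 and 3 in library 1, and library 2 was lowest for 7.

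Myl9 (chr2:156775420-156781658, plus strand), the regulatory light chain of smooth muscle and non-muscle myosin, had 993, 644 and 1014 FPKM (884 ± 208). Myl6, the essential light chain, had 169, 83.2 and 158 FPKM (137 ± 46.5). Mylk, the kinase of the regulatory chain, had 27.0, 25.5 and 34.0 FPKM (28.8 ± 4.51). Both light chains were close between libraries 1 and 3 and low in library 2, while Mylk varied little. The order between genes depends on the length used. Over coding transcript length, Myl6 had a mean of 642 FPKM and Mylk 68.7, beside 911 for Myl9.

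Tagln2, the transgelin of non-muscle cells, had 432, 188 and 373 FPKM (331 ± 127). Cnn2, the calponin of many adherent cells, had 203, 121 and 141 FPKM (155 ± 43.1). Cnn3, the acidic calponin, had 60.8, 69.5 and 69.6 FPKM (66.6 ± 5.07). Tagln2 and Cnn2 were highest in library 1, unlike their smooth muscle paralogs Tagln and Cnn1, and Cnn3 was the steadiest member, with a 1.14-fold range. Over coding transcript length the means of Tagln2 and Cnn3 were 599 and 123 FPKM.

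Tpm2, a tropomyosin, had 139, 78.2 and 163 FPKM (127 ± 43.8). Tpm1 had 65.0, 66.2 and 94.6 FPKM (75.2 ± 16.8), or 297 over coding transcript length. Flna, the filamin that crosslinks actin filaments, had 77.7, 68.7 and 108 FPKM (84.6 ± 20.3). Library 3 was highest for these 3 genes, and library 2 was lowest for Tpm2 and Flna.

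The pericyte-restricted genes were all detected and tested. They held the members with the widest range between libraries as well as members with a narrow one. Of the 8 genes 6 were highest in library 3, and Vtn and Ndufa4l2 were highest in library 1.

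Rgs5 (chr1:169655501-169695813, plus strand), a regulator that speeds GTP hydrolysis by G protein alpha subunits and a standard marker of pericytes, had 15.2, 60.0 and 81.7 FPKM (52.3 ± 33.9). Its relative Rgs4 (chr1:169741477-169747642, minus strand) had 10.8, 26.2 and 61.5 FPKM (32.8 ± 26.0). Both were lowest in library 1 and highest in library 3, over a 5.37-fold range for Rgs5 and 5.70-fold for Rgs4, the widest of the members tested. The mean of Rgs4 was 18.3 FPKM without library 3, and that of Rgs5 was 98.7 over coding transcript length.

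Vtn (chr11:78499091-78502324, plus strand), the matrix glycoprotein vitronectin, had 485, 207 and 161 FPKM (284 ± 175). Ndufa4l2, a mitochondrial protein induced by low oxygen, had 87.1, 40.8 and 64.3 FPKM (64.0 ± 23.1). Higd1b, of the hypoxia-inducible domain family, had 11.9, 3.81 and 17.3 FPKM (11.0 ± 6.81). Vtn was the only member tested whose lowest value was in library 3, while Higd1b was lowest in library 2, with 96 counts there against 200 and 381 in libraries 1 and 3, and had a mean of 17.6 FPKM over coding transcript length.

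Cspg4, the NG2 proteoglycan of pericytes and of oligodendrocyte precursors, had 16.8, 14.1 and 19.2 FPKM (16.7 ± 2.60). Notch3, the Notch receptor of mural cells, had 12.3, 7.91 and 14.3 FPKM (11.5 ± 3.27). Kcnj8, the pore of an ATP-sensitive potassium channel, had 6.27, 6.55 and 11.0 FPKM (7.94 ± 2.65). These 3 genes had library 3 highest within ranges of 1.37-fold, 1.81-fold and 1.75-fold. Because of Vtn, the summed CPM of the class was highest in library 1 (1508, 1071 and 1348 CPM), whereas the sum of the other 7 genes was highest in library 3 (524, 650 and 1020 CPM). That split was made after the values had been seen.

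Both surface genes were tested and took different orders. Mcam, the adhesion molecule CD146 of mural and endothelial cells, had 28.0, 22.0 and 47.9 FPKM (32.6 ± 13.6) and was highest in library 3. Anpep, the aminopeptidase CD13 of pericytes and fibroblasts, had 24.4, 10.4 and 13.1 FPKM (16.0 ± 7.44) and was highest in library 1. Library 2 was lowest for both.

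In order of mean level the members ran from Myl9, Acta2, Tagln2, Tagln and Vtn down to Actg2, Myocd and Actc1. Most neighbours in that order could not be separated. Of 32 neighbouring pairs, 4 differed by more than the larger of their SDs in the same order in all 3 libraries: Acta2 above Tagln2, Mylk above Cspg4, Kcnj8 above Synpo2 and Myocd above Actc1. The median level of a class, as log2(FPKM + 1), was 6.86 ± 0.48 (SD, n = 3) for the shared contractile genes. It was 4.46 ± 0.65 for the pericyte-restricted genes, 3.57 ± 0.49 for the smooth muscle genes and 4.50 ± 0.42 for the surface genes. Over all genes tested the median was 2.20 ± 0.079. These medians describe lists chosen by name, so no test was made of them.

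Paralogs within a protein family showed how the smooth muscle forms stood against the broadly made ones, as shares of the family's summed FPKM. Acta2 made up 16.2%, 17.6% and 24.3% of actin in libraries 1, 2 and 3 (19.4% ± 4.34), beside 71.9% ± 4.45 for the cytoplasmic beta-actin Actb and 8.64% ± 1.16 for Actg1. Actg2 came to 0.0691%, Acta1 to 0.0115% and Actc1 to 0.000643%. Acta2 thus stood far above the other muscle-type actins in every library. Among 3 myosin heavy chains, Myh11 took 79.1% ± 6.14 and the non-muscle Myh9 and Myh10 took 9.58% and 11.4%. Calponin showed the reverse, with 4.34% ± 1.49 for Cnn1 against 66.2% ± 6.90 for Cnn2 and 29.5% ± 6.77 for Cnn3. Transgelin was evenly split, with 49.9% ± 5.04 for Tagln. Over coding transcript length Tagln had 40.8% of transgelin, Myh11 74.5% of the myosin heavy chains and Cnn1 4.19% of calponin. In actin, Acta2 then had 13.5% ± 3.27 and Actb 78.4% ± 3.53. Stretches shared with other genes were searched for in the members only. Reads of Actb and other paralogs outside the members that align to more than 1 place were thus not checked.

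Myl9 took 73.2% ± 3.82 of the regulatory light chains, or 48.4% over coding transcript length, with Myl12a at 18.0% or 41.7%. Flna took 79.0% ± 5.08 of the filamins, or 80.5% over coding transcript length. In the tropomyosins the leading gene depended on the length and on the library. By all annotated exons Tpm2 had 34.8% ± 10.9 and Tpm4 32.2% ± 14.5, and their order differed between libraries. Tpm2 had 47.2%, 26.7% and 30.4% in libraries 1, 2 and 3 against 15.9%, 36.9% and 43.7% for Tpm4. Over coding transcript length Tpm1 led on average with 41.4% ± 2.65. The share of the smooth muscle form was highest in library 3 for Acta2, Cnn1, Tagln and Myh11, the same library in which their levels were highest. This was not particular to them, since the shares of the broadly made Myl9, Flna and Tpm4 were also highest in library 3. Among the other muscle-type actins, the share was highest in library 2 for Actg2 and Actc1 and in library 1 for Acta1.

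**Figure D2:**
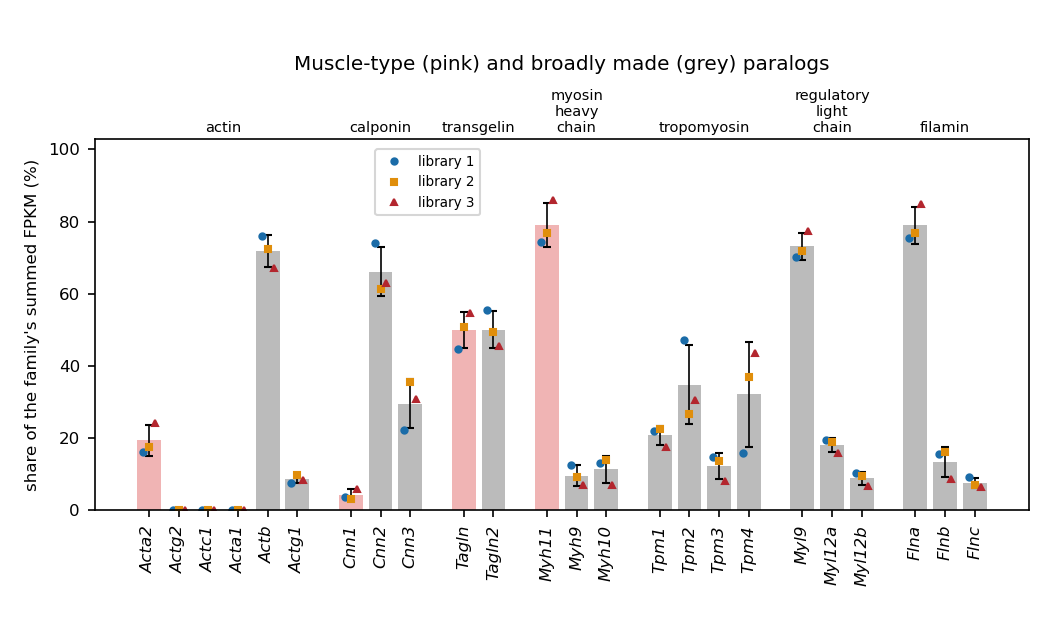
Share of each paralog in its protein family's summed FPKM, in percent (bars, mean of 3 libraries; error bars, SD; circles, squares and triangles, libraries 1, 2 and 3; pink, muscle-type forms; grey, broadly made forms). Myh11 leads the myosin heavy chains at 79.1%, whereas Cnn1 makes up 4.34% of the calponins and Acta2 19.4% of the actins. Lengths are those of all annotated exons, and over coding transcript length Acta2 makes up 13.5%.

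The only comparison that a single group allows is between its libraries. It was made with edgeR's goodness-of-fit test, which asks whether a gene's counts spread more over the libraries than genes of its abundance do, with Benjamini-Hochberg adjustment over all 14409 genes past the count filter. At an adjusted p of 0.05 this test called 63 genes, a background of 0.437%, and 0 of the 32 members tested. The count was also 0 with the size factors of DESeq2 in place of the edgeR scaling. At an unadjusted p under 0.05, 5 members stood out, against 7.04% of all genes: Rgs4, Rgs5, Pln, Vtn and Higd1b. Of these 5, 4 are pericyte-restricted and 1 is a smooth muscle gene.

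In edgeR's goodness-of-fit test the adjusted p was 0.0834 for Rgs4, 0.0989 for Rgs5 and 0.174 for Pln. For Vtn and Higd1b it was 0.512 and 0.692 in the same edgeR test. The adjusted p was 0.9997 for Acta2, 0.998 for Tagln and 0.974 for Myh11 in that edgeR test, so their differences between libraries were not called. A p that misses the threshold does not show that the libraries were alike. On data simulated at the fitted dispersion, the test recovered 109 of 200 genes changed 8-fold in 1 library, with 0 false calls. At 0.1 of that dispersion it recovered 187 of 200, with 1 false call. The widest range among the members tested was 5.70-fold, for Rgs4, so changes of the size seen here could be missed.

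Most members shared a direction. Of the 32 tested, 26 were highest in library 3, 6 in library 1 and 0 in library 2, where the background over all genes tested was 27.6%, 39.6% and 32.8%. Library 2 was lowest for 20 members, library 1 for 11 and library 3 for 1. The members were picked as genes of the same cells, so they are not independent of each other and this count carries no test. Library 3 was set against the average of libraries 1 and 2 as a log2 ratio of CPM + 1. Its median was 0.73 for the smooth muscle genes, 0.32 for the shared genes, 0.62 for the pericyte-restricted genes and 0.26 for the surface genes. Over all genes tested it was -0.02. Against library 2 alone, library 3 was higher by a median log2 ratio of 1.02, 0.64, 0.68 and 0.72 in the same order of classes.

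**Figure D3:**
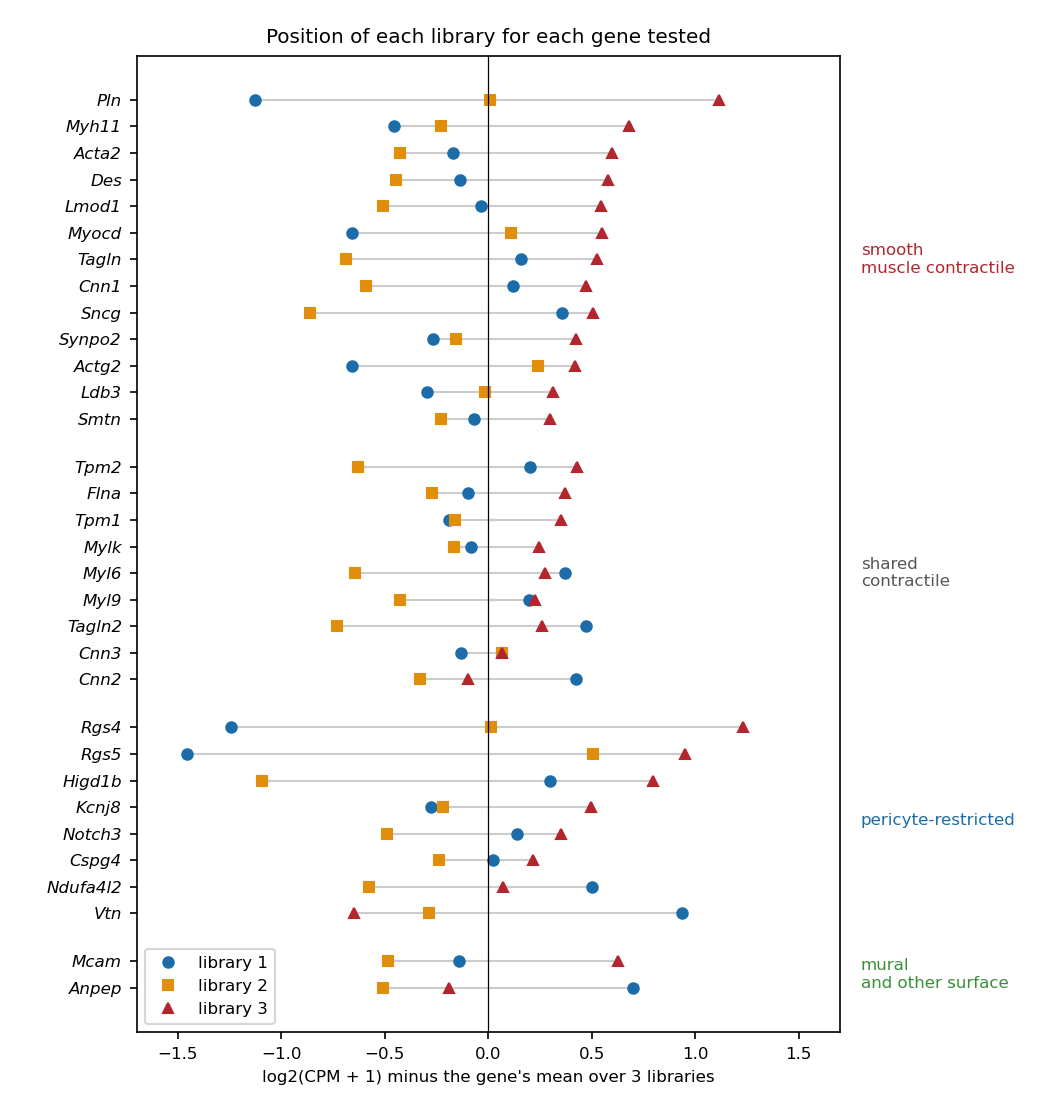
Position of each library (circles 1, squares 2, triangles 3) for each of the 32 genes tested, as log2(CPM + 1) minus the gene's mean over the 3 libraries. Library 3 lies rightmost for all 13 smooth muscle genes, and Vtn, with library 1 rightmost and library 3 leftmost, runs the other way.

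Markers of other cells were read in the same libraries. Of 14 further mural markers, such as Pdgfrb (109 ± 18.3 FPKM) and Heyl (38.4 ± 9.93 FPKM), 14 were tested, 9 were highest in library 3, 4 in library 1 and 1 in library 2. Their summed level was 1373, 1053 and 1388 CPM, with Pdgfrb, which fibroblasts also express, highest in library 1. Atp13a5, a pericyte marker of the brain, had 0.293, 0.187 and 1.87 FPKM, with an adjusted p of 0.109 in the edgeR test. Of the 8 fibroblast markers 1 was highest in library 3 and 5 in library 2. Of the 10 endothelial markers 5 were highest in library 3, and their sum was 112, 105 and 119 CPM. The part of other cells in the direction of the members was not tested.

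Markers of striated muscle, whose actins and myosins are relatives of these genes, were low, and not all were detected. Of 8 skeletal muscle markers the sum was 9.90, 6.25 and 10.4 CPM, and 2 of them had no more than 3 counts in any library. The highest of them, Mylpf, had 71, 47 and 30 counts (a mean of 1.98 FPKM). Of 5 cardiac muscle markers the sum was 6.87, 2.39 and 3.59 CPM, and the atrial light chain Myl7 was at 0 counts in every library. Tnni3, cardiac troponin I, had 133, 70 and 69 counts (1.90 ± 1.18 FPKM), a level like that of Myocd. It was the only cardiac marker past the count filter and gave 6.72, 2.35 and 2.66 CPM of that sum. Nppa had 0, 0 and 1 counts, Myh6 had 3, 1 and 9, and Tnnt2 had 0, 0 and 14. Among oligodendrocyte precursor markers, which bear on Cspg4, Olig1 had 17, 0 and 100 counts, Olig2 had 2, 0 and 6, and Neu4 had 42, 0 and 101. Pdgfra, which is also among the fibroblast markers, had 2474, 4406 and 3406 counts. The source of Cspg4 was not tested. Cspg4 itself had 3977, 4990 and 5956 counts. The 4 neuronal markers had a median of 3.97 FPKM.

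Base composition ran with the distance of library 1. The genes tested were ranked by GC content and divided into 10 groups. The median of the log2 ratio between library 1 and the average of the other libraries was -1.09 in the lowest group (median GC 39.9%) and -0.67 in the next (43.0%). It was 0.38 in the group of median GC 56.5%. The 3 members with the widest steps from library 1 lie in these 2 lowest groups: Pln (GC 38.6%), Rgs5 (41.1%) and Rgs4 (44.0%). Their ratios were -1.79, -2.20 and -1.99, below the median of their groups. Once the GC and length trends were taken out, the ratios were -0.40, -1.17 and -1.33. The ratios after removal were taken against the mean of the log2 levels of the other libraries. Those before were taken against the log2 of their mean level. A change between them can thus come partly from the measure. Vtn, with 55.3% GC, had a ratio of 1.39 and still 0.90 after removal.

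With these trends removed, edgeR's goodness-of-fit test called 111 genes, a background of 0.772%, and 1 member, Rgs4, at an adjusted p of 0.0238. Over the other settings tried, the adjusted p of Rgs4 in the edgeR test ran from 0.0531 to 0.958, the highest being that without library 3. For Rgs5 and Pln it was 0.405 and 0.386 in the trend-removed edgeR fit. In that fit 29 of 32 members were highest in library 3, against a background of 32.0%, with Vtn, Anpep and Cnn2 the exceptions. Tagln2, Myl6 and Ndufa4l2, highest in library 1 before, were then highest in library 3. In the measure used after removal, the ratio of library 3 to the others kept its sign in all 32 members. That of library 1 changed sign in 9: Myl9, Tagln, Tpm2, Ndufa4l2, Sncg, Cspg4, Notch3, Higd1b and Cnn1. For Myl9 it went from 0.26 to -0.40, and the median of the shared contractile genes went from 0.21 to -0.15. In that measure the median ratio of library 3 to the others was 0.91 for the smooth muscle genes and 0.78 for the pericyte-restricted genes. For the shared genes it was 0.52 and for the surface genes 0.44. Over all genes it was 0.00.

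**Figure D4:**
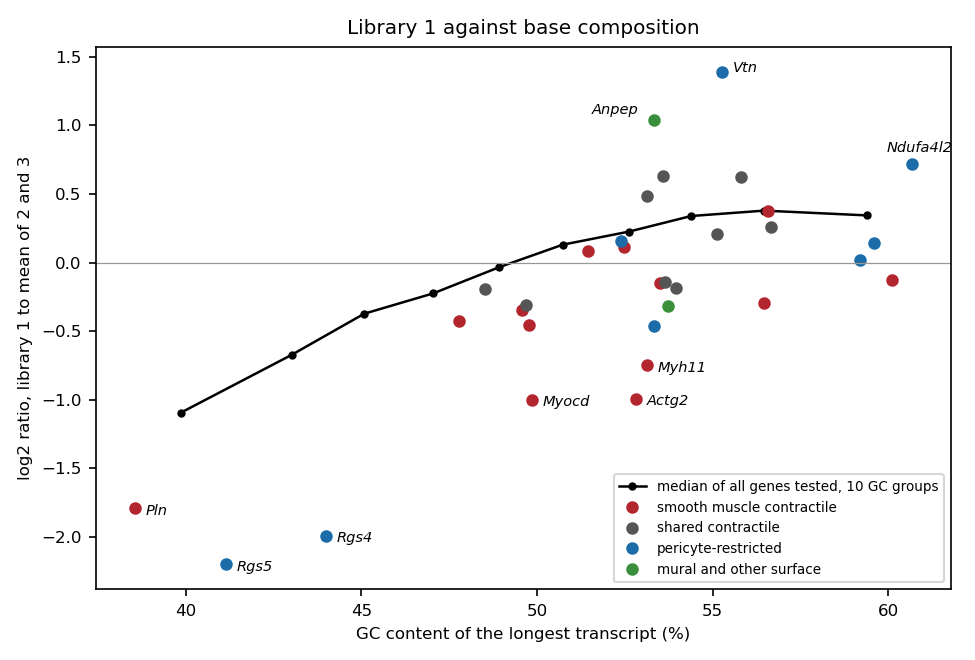
Log2 ratio between library 1 and the average of the other libraries (from CPM + 1) against the GC content of each gene's longest transcript in percent, for the 32 members tested (points, coloured by class) and as the median of all genes in 10 GC groups (black line). Pln, Rgs5 and Rgs4 lie at the low end of GC content and below the line, and Vtn lies above it at 1.39.

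The other genes of the contractile pathway were read as lists, beside a background of 0.437% called over all genes tested. Of 12 non-muscle contractile genes in the table, all tested, edgeR called 0; their median was 30.0 FPKM, and 6 were highest in library 3 and 5 in library 1. Of 14 regulators of contraction and of the smooth muscle programme, all tested, 0 were called and 8 were highest in library 3. They were low, with a median of 3.08 FPKM, and serum response factor (Srf) had 2.81 ± 1.64 FPKM. Of 8 channels and calcium release genes of smooth muscle 7 were tested and 0 called, with a median of 1.21 FPKM. Library 2 was highest for 4 of the channels and library 3 for 3. So the summed level of the channels, at 138, 174 and 169 CPM, did not single out library 3. Of the 3 other actin genes read, Actb, Actg1 and Acta1, 0 were called. With the GC and length trends taken out, edgeR called 3 of the 75 listed genes and markers tested, against 0.772% of all genes. In that edgeR test the adjusted p was 0.0272 for Tpm4 of the non-muscle list, 0.0254 for the mural marker Atp13a5 and 0.0420 for the fibroblast marker Dcn.

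Counting could affect some members more than others. In the annotation of the genes in the table, exons of 8 members overlap a gene on the opposite strand, and the strand setting of the counting was not given in the sources used here. The overlap covers 17.7% of the exon length of Cnn3 and 16.3% of Smtn, and from 0.507% to 6.03% of Notch3, Des, Tagln, Pln, Ndufa4l2 and Mcam. No exon overlap with a gene on the same strand was found. For 19 of the 33 members no stretch of 50 bases, matched on either strand, occurred in another gene of GENCODE M21. The largest shares were 58.3% for Tagln and 56.2% for Pln, mostly with Gm48529 and Gm47644. Neither is among the overlapping genes counted above, which were looked for only among the rows of the table used here. Cnn3 shared 24.0%, Smtn 9.46% and Myl6 8.38%. These are shares of distinct stretches in the transcripts and do not measure an error in the level. How far they affect the levels of these 5 genes was not tested.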

How the data were processed

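RNA of 3 sorted leptomeningeal samples was sequenced as paired reads. The deposited values are counts per gene by the authors, whole numbers with no normalization, whereas the labels name a normalized table. Per the submitters' processing notes, HTSeq 0.5.3, DESeq2 1.22.1 and mm10 were used; the aligner, annotation release and strand setting were not given in the sources used here. The rows for reads assigned to no gene (45.6%, 39.1% and 39.6% of the totals) were left out. Of 46983 gene identifiers, 46488 were found in GENCODE M21 (GRCm38), which gave coordinates and exon lengths. Scaling used TMM (edgeR 4.0.16, R 4.3.3), and filterByExpr at a minimum count of 10 left 14409 genes. Goodness of fit was tested at the trended dispersion on 2 degrees of freedom, in an intercept-only model, and was checked on simulated data. GC content and length trends were removed with lowess offsets for 14375 genes with both values. Size factors came from DESeq2 1.42.0, and alignments from Biopython 1.88. Every member above 10 FPKM in any library (28 genes) and every pericyte-restricted gene is given by library. The members, classes and lists were chosen with earlier results of these data known. The non-muscle myosin Myh14, whose symbol stood on more than 1 row, was left out, and the table's Mkl1 and Mkl2 stood for Mrtfa and Mrtfb.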

Additional observations from a re-analysis of the deposited data

Results flagged for a closer look

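Reads outside the gene counts were not used in any comparison and exceeded what a count of 0 would allow. On average over the 3 libraries, 16.5% of all reads in the table aligned to more than 1 place, 14.7% did not align, 8.89% aligned outside annotated genes and 1.35% were shared by overlapping genes. The table gives these reads only as totals per library, so they add no value for a member.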

How the results depend on the processing

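No paired analysis was possible because all 3 libraries share 1 label. The number of genes called by edgeR's goodness-of-fit test moved from 63 to 134 with no filter on low counts, to 181 with a mean count of at least 10, and to 111 with GC content and length trends removed, and ran from 12 to 28 when 1 library was left out. Members called stayed at 0 except for 1, Rgs4, with the trends removed. Division by length set the class medians: as log2(CPM + 1) they were 5.41 for smooth muscle, 8.72 for shared, 6.59 for pericyte-restricted and 6.34 for surface genes, and over coding transcript length the shared median was 7.77. Leaving out 1 library gave 3.31 to 3.79, 6.70 to 7.12, 4.09 to 4.79 and 4.37 to 4.71 log2(FPKM + 1) in the same order. Members highest in library 3 numbered 25 with DESeq2's size factors, 26 with plain totals and 29 with the trends removed. Another exon length moved the level of 14 of 33 members by more than 1 SD; this alternative and the counts of members highest in library 3 were chosen after seeing the data. The ratio of library 3 to the others kept its sign in all 32 members with the trends removed, whereas that of library 1 changed sign in 9. The ratios after removal also used a mean of log2 levels in place of the log2 of a mean. Depth limits Actc1, with 3 counts in all.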
